A study of Mus musculus with 2 samples.

Results

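Ctla4, Icos and Cd28 encode 3 receptors of the CD28 family, which set how strongly a T cell answers once its antigen receptor is engaged. Their rows were taken by gene symbol from the count matrices of both libraries, so the results below concern 3 of the 55357 genes counted. The cells came from hearts of wild-type mice (genotype WT in the labels) taken 7 days after the animals had a myocardial infarction (MI), in which heart muscle dies because its blood supply is blocked. The mice had been injected with anti-PD1, an antibody against the inhibitory receptor PD1, or with anti-IgG, the comparison antibody. Strain, age, antibody dose and the number of hearts behind each library are not given in the sources used here, and all mice in both groups had MI. Each antibody is represented by 1 library, so differences between them are given without a p-value and could not be checked in a second library. All intervals in brackets are 95% intervals for counting error alone, and they leave out the variation between animals.

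CD28 is present on most resting T cells with an alpha-beta receptor and adds the costimulatory signal that a naive T cell needs to divide. CTLA4 binds the same ligands as CD28, CD80 and CD86, but more tightly, and restrains the response; regulatory T cells carry it permanently, and other T cells make it after activation. ICOS appears after activation, binds its own ligand ICOSL, and supports effector, follicular helper and regulatory T cells. PD1, the target of the injected antibody, belongs to the same receptor family, and CD28 is one of the proteins whose signalling PD1 dampens.

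The 3 genes lie side by side on the plus strand of mouse chromosome 1 (GRCm38, GENCODE M21 annotation). Cd28 (ENSMUSG00000026012) spans 60716800 to 60773359, Ctla4 (ENSMUSG00000026011) 60887000 to 60915832, and Icos (ENSMUSG00000026009) 60977927 to 61000320. The gap between Cd28 and Ctla4 is 113640 bases and that between Ctla4 and Icos 62094 bases. Over the aligned coding bases, Ctla4 and Cd28 were identical at 64.4% (373 of 579), Icos and Cd28 at 63.4% (346 of 546) and Ctla4 and Icos at 61.2% (337 of 551).

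The next 2 sets of coding stretches show how the members are alike and where they part; both were read from the GENCODE M21 transcripts. In the following 3 lines the capitals mark the 6 codons of the proline-rich loop with which CTLA4 and CD28 touch CD80 and CD86, and the matching codons of Icos, whose protein binds ICOSL.
Ctla4 loop: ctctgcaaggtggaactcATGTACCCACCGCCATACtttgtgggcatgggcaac
Cd28 loop: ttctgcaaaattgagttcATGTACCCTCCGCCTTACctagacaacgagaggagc
Icos loop: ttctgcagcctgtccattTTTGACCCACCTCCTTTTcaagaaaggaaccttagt
Of the 18 bases in capitals, 16 were identical between Ctla4 and Cd28, 11 between Ctla4 and Icos and 11 between Icos and Cd28. In the next 3 lines the capitals mark the 4 codons of the cytoplasmic tyrosine motif, which in CD28 and ICOS recruits phosphoinositide 3-kinase and in CTLA4 also binds the adaptor that takes the receptor back into the cell.
Ctla4 tail: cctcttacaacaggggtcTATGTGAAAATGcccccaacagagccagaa
Cd28 tail: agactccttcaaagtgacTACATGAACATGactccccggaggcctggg
Icos tail: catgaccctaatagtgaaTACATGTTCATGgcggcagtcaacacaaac

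The values are counts of unique molecular identifiers (UMIs), each of which stands for 1 captured RNA molecule. After the cell filter 5835 of 6026 anti-PD1 and 4309 of 4380 anti-IgG barcodes remained, with medians of 3858 and 4079 UMIs per cell. A UMI of Cd3d, Cd3e or Cd3g, parts of the T cell receptor complex, was found in 5352 anti-PD1 cells (91.7%) and 3992 anti-IgG cells (92.6%), and these are called T cells here, the cell type named in the labels. They were placed in 4 gates that exclude each other by marker UMIs: Foxp3 (the transcription factor of regulatory T cells; 265 anti-PD1 and 219 anti-IgG cells), Cd4 without Foxp3 (helper T cells; 1241 and 1308 cells), Cd8b1 (cytotoxic T cells; 1199 and 865 cells), and Trdv4 or Trgv6 (gamma-delta T cells; 618 and 268 cells). The last gate takes only gamma-delta T cells with a UMI of these variable segments of the receptor, and those with other segments are not in it. The terms gamma-delta gate and gamma-delta cells below mean this subset alone. The Cd4 gate asks only that no Foxp3 UMI was seen, so regulatory T cells whose Foxp3 RNA was not captured can be in it. The gamma-delta gate held 11.5% of T cells in the anti-PD1 library and 6.71% in the anti-IgG library, and the Cd4 gate 23.2% and 32.8%. A further 1596 anti-PD1 and 953 anti-IgG T cells carried no gate marker, and 433 and 379 carried markers of more than 1 gate, with median depths of 8894 and 8832 UMIs. The 2 libraries shared 47 barcodes, 1.07% of those in the smaller one. A level is given in CPM, the number of UMIs of a gene for every 1000000 UMIs of the same cells, and levels are compared within a gene, not between genes.

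Over all T cells, Icos and Ctla4 were higher in the anti-PD1 library and Cd28 differed little. Icos had 9805 UMIs in anti-PD1 T cells and 3769 in anti-IgG T cells, levels of 373.0 and 181.6 CPM and a ratio of 2.05 (1.98 to 2.13). Ctla4 had 6403 and 3270 UMIs, 243.6 and 157.5 CPM and a ratio of 1.55 (1.48 to 1.61). Cd28 had 5579 and 3925 UMIs, 212.3 and 189.1 CPM and a ratio of 1.12 (1.08 to 1.17). Of the 11422 genes with at least 100 summed UMIs in T cells, 5.13% were at least 1.5 times higher and 9.67% at least 1.5 times lower in the anti-PD1 library. The median gene had a ratio of 0.920 (a log2 ratio of -0.12), so the whole scale is shifted slightly down in the anti-PD1 library. Against that distribution Icos stood at percentile 98.1, Ctla4 at 95.4 and Cd28 at 82.4. Ctla4 and Icos are past 1.5 times; with cells thinned to the same depth, Ctla4 was at 1.44 (1.31 to 1.59).

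**Figure D1:**
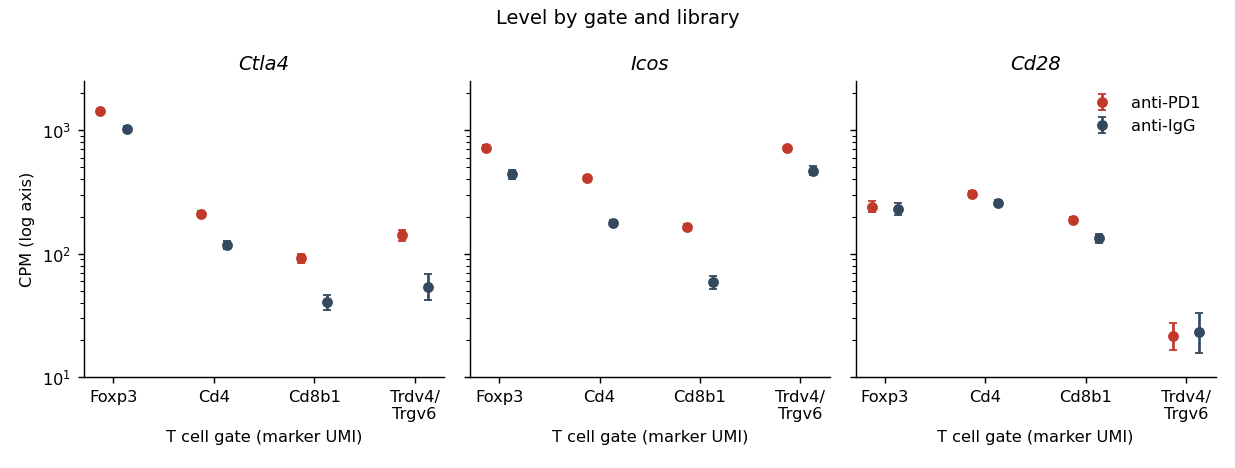
Level of each gene, in CPM on a log axis, in the 4 T cell gates of the anti-PD1 library (red) and the anti-IgG library (dark blue); each point is 1 library and the bars are exact Poisson 95% intervals. Ctla4 is highest in the Foxp3 gate (1430 and 1022 CPM), Icos in the Foxp3 and gamma-delta gates, and Cd28 is lowest in the gamma-delta gate (21.7 and 23.2 CPM).

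Ctla4, the inhibitory member, was concentrated in the Foxp3 gate. Its level there was 1430 CPM in the anti-PD1 library and 1022 in the anti-IgG library. The Cd4 gate followed at 208.9 and 118.5 CPM, then the gamma-delta gate at 140.7 and 54.2, and the Cd8b1 gate at 91.7 and 40.4. The Foxp3 gate stood 6.84 times (6.36 to 7.37) above the Cd4 gate in the anti-PD1 library and 8.63 times (7.86 to 9.47) in the anti-IgG library. Every neighbouring pair in this order differed beyond counting error, the closest being the gamma-delta and Cd8b1 gates of the anti-IgG library at 1.34 (1.01 to 1.77). Foxp3-gate cells were 4.95% of anti-PD1 and 5.49% of anti-IgG T cells, yet they held 32.8% and 39.7% of the Ctla4 UMIs. Within the gate the transcripts were unevenly spread: 71 of 265 anti-PD1 cells and 38 of 219 anti-IgG cells had 10 or more Ctla4 UMIs, and 19 anti-PD1 cells had none. Such clustering makes an interval that treats each UMI as a separate draw too narrow.

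The Ctla4 locus gives the sequence in front of its RefSeq start, shown because Ctla4 was the member with the widest range between gates. This window lies inside the GENCODE span of Ctla4 given above (60887000 to 60915832), not in front of the first base of that span. RefSeq (GRCm38.p6) places the window of 300 bases at chr1:60908775-60909074 on the plus strand; the capitals mark the matches to the motif GGAAA (here on the other strand, as TTTCC), the core of NFAT sites, and to TATAAA.
Ctla4 promoter: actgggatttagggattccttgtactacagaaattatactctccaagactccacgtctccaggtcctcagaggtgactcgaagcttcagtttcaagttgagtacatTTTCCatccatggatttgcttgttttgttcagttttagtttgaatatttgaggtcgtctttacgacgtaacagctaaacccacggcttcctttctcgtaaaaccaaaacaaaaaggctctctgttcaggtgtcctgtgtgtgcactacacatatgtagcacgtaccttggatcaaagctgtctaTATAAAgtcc
GGAAA was found at 1 place, from base 107 of the window, and 61.3% of 32851 promoters of the same length hold it on either strand. TATAAA was found from base 291, as in 13.6% of promoters. No match to the AP-1 motif TGANTCA (in 7.81% of promoters), to TGACG, the core of cyclic AMP response elements (20.8%), or to AAAGGTCA, the motif of NR4A receptors (1.51%), lay in this window, on either strand.

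Icos, the inducible costimulator, was highest in the gamma-delta and Foxp3 gates. The gamma-delta gate had 716.9 CPM in the anti-PD1 library and 470.9 in the anti-IgG library. The Foxp3 gate had 715.0 and 441.8 CPM, the Cd4 gate 406.7 and 177.9, and the Cd8b1 gate 165.4 and 59.0. The gamma-delta and Foxp3 gates did not differ beyond counting error in either library, with ratios of 1.00 (0.930 to 1.08) and 1.07 (0.949 to 1.20). The Cd4 gate was clearly below both: the Foxp3 gate was 1.76 times (1.63 to 1.89) above it in the anti-PD1 library and 2.48 times (2.24 to 2.76) in the anti-IgG library. An Icos UMI was found in 82.5% of anti-PD1 and 73.9% of anti-IgG gamma-delta cells, the highest shares of any gate.

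Cd28, the constitutive costimulator, ran in another order. The Cd4 gate led with 306.1 CPM in the anti-PD1 library and 257.4 in the anti-IgG library, ahead of the Foxp3 gate at 241.1 and 230.0 and the Cd8b1 gate at 189.1 and 133.0. The Cd4 and Foxp3 gates of the anti-IgG library did not differ beyond counting error (1.12, 0.987 to 1.27), while those of the anti-PD1 library did (1.27, 1.13 to 1.43). The gamma-delta gate had only 62 UMIs in 40 of 618 anti-PD1 cells and 30 UMIs in 14 of 268 anti-IgG cells, levels of 21.7 and 23.2 CPM. The Cd4 gate stood 14.1 times (10.97 to 18.5) above it in the anti-PD1 library and 11.1 times (7.73 to 16.5) in the anti-IgG library. The gamma-delta gate thus had the lowest Cd28 level of the 4 gates in both libraries. Its Icos level, with that of the Foxp3 gate, was above those of the Cd4 and Cd8b1 gates.

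**Figure D2:**
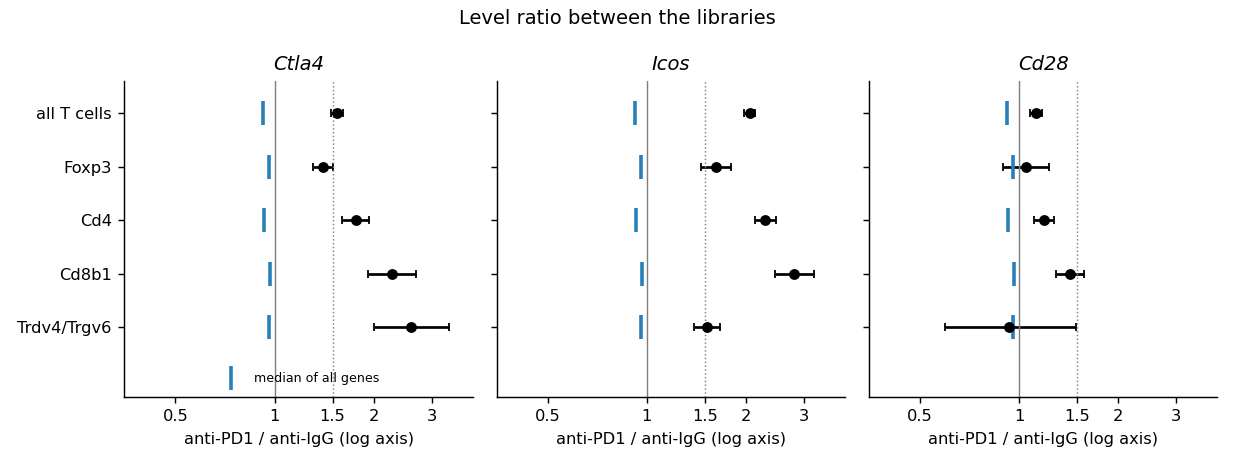
Ratio of the anti-PD1 level over the anti-IgG level of each gene (log axis) in all T cells and in the 4 gates; the bars are 95% counting intervals, the blue ticks the median of all genes with at least 100 summed UMIs, the solid line 1 and the dotted line 1.5. Icos in the Cd8b1 gate (2.80) and Ctla4 in the gamma-delta gate (2.60) lie farthest right, and Cd28 in the Foxp3 and gamma-delta gates has intervals that include 1.

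Within gates, Ctla4 and Icos were higher in the anti-PD1 library in all 4, and Cd28 in the Cd4 and Cd8b1 gates. With cells thinned to 1000 UMIs the intervals of 2 of these ratios included 1, Ctla4 in the Foxp3 gate at 1.17 (0.998 to 1.37) and Cd28 in the Cd4 gate at 1.10 (0.952 to 1.27). The Ctla4 ratio was 2.60 (2.01 to 3.40) in the gamma-delta gate, from 403 anti-PD1 and 70 anti-IgG UMIs, and 2.27 (1.93 to 2.69) in the Cd8b1 gate, from 594 and 191 UMIs. It was 1.76 (1.60 to 1.94) in the Cd4 gate and 1.40 (1.30 to 1.5002) in the Foxp3 gate, where the level itself was highest. Markers of other cells also differed between the libraries within the gates. Fibroblast markers in the Foxp3 gate summed to 4.09 CPM in the anti-PD1 library, with Col3a1 at 0, and 1120 in the anti-IgG library. B cell markers summed to 333.7 and 122.9 with all 4 detected, and macrophage markers to 437.2 and 1025. Red cell markers summed to 0.681, with Hba-a1 and Hbb-bt at 0, and 410.3. Such sums can rest on few cells. Cells with 2 or more fibroblast markers were 0.377% of anti-PD1 and 1.37% of anti-IgG cells of this gate. For red cell markers these shares were 0% and 0.457%, for macrophage markers 2.26% and 4.11%, and for B cell markers 9.43% and 5.02%. Without T cells that carried 2 or more markers of other cells (33 anti-PD1 and 26 anti-IgG cells of this gate), the Ctla4 ratio was 1.28 (1.19 to 1.38). In the Cd4 gate fibroblast markers summed to 2.24 CPM in the anti-PD1 and 74.9 in the anti-IgG library and B cell markers to 130.2 and 40.5. In the Cd8b1 gate fibroblast markers summed to 2.01 and 72.3 CPM, B cell markers to 99.0 and 40.6 and red cell markers to 0.154 and 165.1. Macrophage markers summed to 563.9 and 879.4 CPM in the Cd4 gate and 394.3 and 586.1 in the Cd8b1 gate. In the anti-IgG library, 2 or more fibroblast markers were in 0.0765% of Cd4-gate and 0.116% of Cd8b1-gate cells, and 2 or more red cell markers in 0.231% of Cd8b1-gate cells. Without cells that carried 2 or more markers of other cells, the Ctla4 ratio was 1.83 (1.65 to 2.03) in the Cd4 gate and 2.26 (1.91 to 2.69) in the Cd8b1 gate.

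The Icos ratio was 2.80 (2.46 to 3.21) in the Cd8b1 gate, 2.29 (2.12 to 2.46) in the Cd4 gate, 1.62 (1.46 to 1.80) in the Foxp3 gate and 1.52 (1.39 to 1.67) in the gamma-delta gate. In the gates where Icos was already high in the anti-IgG library, the ratio was thus the smaller one. With the gate marker asked for in 2 UMIs, the Icos ratio of the Foxp3 gate was 1.38 (1.23 to 1.54). The Cd28 ratio was 1.42 (1.29 to 1.57) in the Cd8b1 gate, 1.19 (1.11 to 1.28) in the Cd4 gate, 1.05 (0.895 to 1.23) in the Foxp3 gate and 0.932 (0.593 to 1.49) in the gamma-delta gate. Whether these ratios differ between gates was not tested, since each rests on 1 library per antibody. T cells in no gate gave ratios of 2.27 for Ctla4, 2.12 for Icos and 1.13 for Cd28.

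The share of genes at least 1.5 times higher in the anti-PD1 library was 5.87% in the Foxp3 gate, 4.86% in the Cd4 gate, 5.40% in the Cd8b1 gate and 6.55% in the gamma-delta gate. The share at least 1.5 times lower was 7.09%, 7.20%, 6.09% and 5.84% in the same order of gates. Ctla4 was past 1.5 times higher in 3 of the gates and Icos in 4, while Cd28 was past it in 0, and none of the members was at least 1.5 times lower in any of the 4. Among the genes measured in each gate, Icos ranked at percentiles from 93.8 (gamma-delta) to 99.3 (Cd8b1) and Ctla4 from 92.2 (Foxp3) to 98.8 (Cd8b1). Cd28 ranked at 66.4 in the Foxp3 gate, 85.9 in the Cd4 gate and 93.2 in the Cd8b1 gate. In the gamma-delta gate its 62 and 30 UMIs fell short of the 100 asked of the other genes, so it has no rank there.

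For Ctla4 and Icos, both the share of cells with a UMI and the number of UMIs in each such cell were higher in the anti-PD1 library. A Ctla4 UMI was found in 29.3% of anti-PD1 and 21.9% of anti-IgG T cells, with 4.08 and 3.74 UMIs per such cell. An Icos UMI was found in 52.5% and 37.9%, with 3.49 and 2.49 UMIs per such cell. For Cd28 the share was not higher, at 49.8% and 50.4%, with 2.10 and 1.95 UMIs per such cell. In the Foxp3 gate the share of cells with a Ctla4 UMI was 92.8% in the anti-PD1 library and 86.8% in the anti-IgG library, and the count per such cell 8.54 and 6.83, so the second of these differed more. In the Cd8b1 gate the share with an Icos UMI was 41.3% and 21.0%, against 2.16 and 1.53 UMIs per such cell, so there the share differed more. Cells with 10 or more Icos UMIs made up 3.27% of anti-PD1 T cells (175 cells) and 0.927% of anti-IgG T cells (37 cells).

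**Figure D3:**
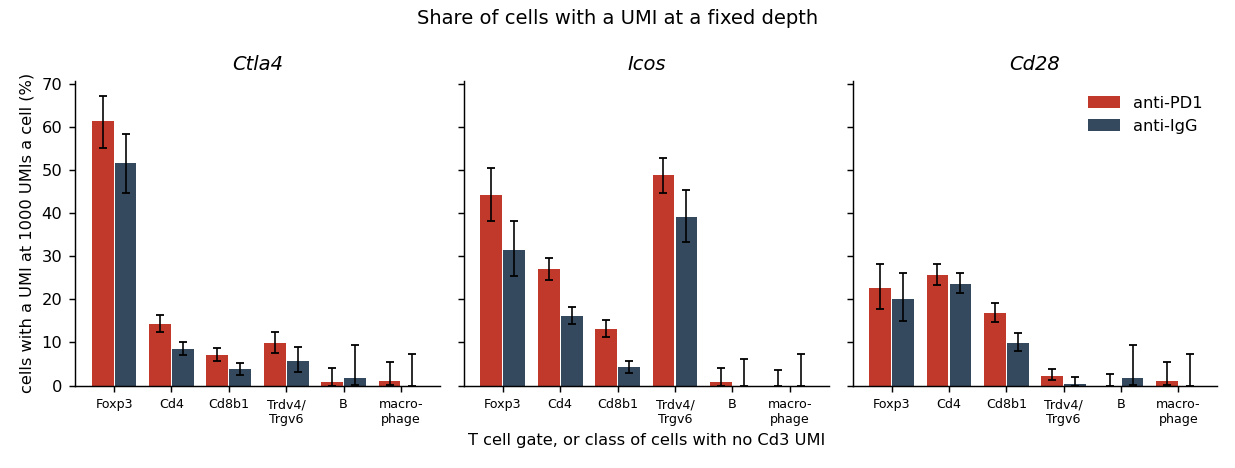
Share of cells with at least 1 UMI of each gene after every cell was thinned to 1000 UMIs, in the 4 T cell gates and in B cells and macrophages with no Cd3 UMI, for the anti-PD1 library (red) and the anti-IgG library (dark blue); the bars are exact 95% binomial intervals. Icos in the Cd8b1 gate is at 13.1% and 4.21%, Ctla4 in the Foxp3 gate at 61.4% and 51.6%, and the intervals of Cd28 in the gamma-delta gate overlap those of the B cells.

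When every cell was thinned to 1000 UMIs, which leaves out 52 anti-PD1 and 34 anti-IgG T cells below that depth, Icos was found in 24.9% (23.7 to 26.1) of anti-PD1 and 14.9% (13.8 to 16.0) of anti-IgG T cells. Ctla4 was found in 14.0% (13.1 to 15.0) and 9.47% (8.58 to 10.4), and Cd28 in 19.2% (18.1 to 20.3) and 17.9% (16.7 to 19.1). Free RNA can give UMIs in cells that do not express a gene, so the shares in B cells with no Cd3 UMI, which should lack these receptors, are set beside them. As sequenced, Ctla4 was in 4 of 133 anti-PD1 and 2 of 57 anti-IgG B cells (3.01% and 3.51%), Icos in 1 and 0, and Cd28 in 1 and 2, at median depths of 2403 and 2730 UMIs. The 4 anti-PD1 B cells with Ctla4 held 25 UMIs of it, up to 11 in 1 cell, so their share is not a measure of evenly spread free RNA. An Icos count of 0 in 57 cells allows a share of up to 5.26%. After thinning, Cd28 was in 14 of 613 anti-PD1 and 1 of 268 anti-IgG gamma-delta cells (2.28% and 0.373%) and in 0 of 132 anti-PD1 and 1 of 57 anti-IgG B cells (0% and 1.75%). The intervals of the gamma-delta and B cell shares overlap in each library, but with so few B cells this thinned comparison cannot decide between expression and background. As sequenced, 27 of 618 anti-PD1 gamma-delta cells had 1 Cd28 UMI, 8 had 2 and 5 had 3 or more. In the anti-IgG library these were 9, 3 and 2 of 268 cells. Cd28 was in 1 of 133 anti-PD1 and 2 of 57 anti-IgG B cells as sequenced. The gamma-delta cells were deeper, with medians of 4132.5 and 4391 UMIs, so these shares are not at equal depth.

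In the pooled T cells the members were found together in 1 cell more often than the product of their single shares. For Icos and Cd28 in the anti-PD1 library this was within counting error, at 5.32% (4.73 to 5.96) of thinned cells against a product of 4.78%. At 1000 UMIs per cell, Ctla4 and Icos were found together in 6.09% (5.47 to 6.77) of anti-PD1 and 2.50% (2.04 to 3.04) of anti-IgG T cells, 1.75 and 1.78 times the product of their shares. In the Foxp3 gate the pair was in 33.0% (27.3 to 39.0) of anti-PD1 and 19.2% (14.2 to 25.0) of anti-IgG cells, 1.21 and 1.18 times the product. For Ctla4 and Icos the multiple was below the pooled one in all 4 gates of both libraries, though only slightly so in the anti-PD1 Cd4 gate (1.71). For Icos and Cd28 it was above the pooled one in the Cd8b1 gate, at 1.63 in the anti-PD1 and 1.68 in the anti-IgG library, against 1.11 and 1.22 over all T cells. The anti-IgG value rests on 6 of 856 cells, 0.701% (0.258 to 1.52), an interval that holds the product of 0.418%. The multiple was also slightly above the pooled one in the Cd4 gate (1.14 and 1.26) and the anti-PD1 Foxp3 gate (1.17). It was below it in the anti-IgG Foxp3 gate (1.01) and in the gamma-delta gate of both libraries. Icos was found in 46.0% of anti-PD1 Cd4-gate cells with a Ctla4 UMI and in 23.8% of those without one; in the anti-IgG library the shares were 24.3% and 15.4%. All 3 members were seen in 83 anti-PD1 cells (1.57%) and 22 anti-IgG cells (0.556%), and none of them in 55.4% and 65.2% of T cells. In the Foxp3 gate all 3 were seen in 27 of 264 anti-PD1 cells (10.2%) and 7 of 219 anti-IgG cells (3.20%). Ctla4 and Cd28 were seen together in 0 of 613 anti-PD1 and 0 of 268 anti-IgG gamma-delta cells, which allows shares of up to 0.489% and 1.12%.

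Nr4a1, an early response gene of antigen receptor signalling, differed between the libraries far more than the members did. Its level was 507.1 CPM in anti-PD1 and 104.6 in anti-IgG T cells, a ratio of 4.85 (4.63 to 5.07). An Nr4a1 UMI was found in 61.3% and 21.8% of T cells. The difference was not confined to T cells. Among cells with no Cd3 UMI, the Nr4a1 ratio was 3.91 (2.80 to 5.60) in B cells and 2.57 (1.93 to 3.46) in macrophages. Dendritic cells gave 5.87 (3.97 to 8.99), endothelial cells 6.62 (3.55 to 13.3) and fibroblasts 7.41 (3.69 to 16.9). Ctla4 was at 286.3 CPM in anti-PD1 and 251.1 in anti-IgG cells with an Nr4a1 UMI, a ratio of 1.14 (1.08 to 1.21), and at 141.3 and 119.0 in cells without one, a ratio of 1.19 (1.10 to 1.28). Both ratios were below the 1.55 of all T cells. The Icos ratios were above those of Ctla4 on both sides of the split. They were 1.70 (1.60 to 1.80) in cells with an Nr4a1 UMI and 1.79 (1.68 to 1.90) in cells without one, both below the 2.05 of Icos in all T cells. Cd28 had 1.09 (1.02 to 1.16) and 1.07 (1.00 to 1.14).

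Gate by gate, the same split gave unlike values. In gamma-delta cells with an Nr4a1 UMI, Icos was at 715.6 CPM in the anti-PD1 library and 714.7 in the anti-IgG library, a ratio of 1.00 (0.876 to 1.15), and in those without one at 721.2 and 379.3, a ratio of 1.90 (1.66 to 2.19). In the Cd4 gate Ctla4 had a ratio of 1.499 (1.29 to 1.75) with and 1.18 (0.999 to 1.39) without an Nr4a1 UMI. In the Cd8b1 gate both members stayed higher on either side of the split, Ctla4 at 2.17 (1.62 to 2.98) and 1.91 (1.53 to 2.40) and Icos at 2.08 (1.67 to 2.61) and 2.74 (2.29 to 3.29). In the Foxp3 gate the ratios with and without an Nr4a1 UMI were close for Ctla4, at 1.26 (1.16 to 1.37) and 1.32 (1.14 to 1.52). They were also close for Icos, at 1.58 (1.38 to 1.81) and 1.63 (1.34 to 1.97). Cd28 in that gate was at 0.841 (0.693 to 1.02) with and 1.56 (1.15 to 2.11) without an Nr4a1 UMI. The part of Nr4a1-bearing cells in these differences was not tested beyond this split.

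Pdcd1, which encodes PD1, was at 190.8 CPM in anti-PD1 and 130.8 in anti-IgG T cells, a ratio of 1.46 (1.39 to 1.53). Within gates the ratio was 1.03 (0.892 to 1.19) for Foxp3, 1.05 (0.925 to 1.18) for Cd4 and 1.15 (1.06 to 1.24) for gamma-delta. It was 1.57 (1.35 to 1.83) for Cd8b1. The level was highest in the gamma-delta gate (748.7 and 653.7 CPM), which held 11.5% of anti-PD1 and 6.71% of anti-IgG T cells. Cells with a Pdcd1 UMI had more Icos and Ctla4 than cells without one in both libraries: Icos was at 569.8 CPM in anti-PD1 and 306.6 in anti-IgG cells with a Pdcd1 UMI, and at 269.9 and 132.4 in cells without one. The Icos ratio was 1.86 (1.76 to 1.96) with and 2.04 (1.93 to 2.15) without a Pdcd1 UMI. Ctla4 was at 390.1 and 300.3 CPM with a Pdcd1 UMI (ratio 1.30, 1.23 to 1.38) and at 166.8 and 101.3 without (ratio 1.65, 1.55 to 1.75).

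The ligands had higher levels in some cells without a Cd3 UMI than in T cells, although the far more numerous T cells held most of their UMIs. Among cells with no Cd3 UMI, B cells (133 anti-PD1 and 57 anti-IgG) had 42 and 20 UMIs of Icosl, the ligand of ICOS, in 27.1% and 29.8% of cells and at levels of 104.0 and 86.0 CPM. Macrophages (111 and 51 cells) had 66 and 38 UMIs of Cd86, a ligand of CD28 and CTLA4, in 43.2% and 39.2% of cells and at 109.7 and 114.0 CPM. Cd80, the other ligand of both, had 13 and 3 UMIs in macrophages. Dendritic cells (59 and 44) had 16 anti-PD1 and 1 anti-IgG UMIs of Cd86, and 8 and 0 of Cd80. These counts come from few cells and give no firm direction. In T cells the 3 ligands were sparse, with 375 anti-PD1 and 391 anti-IgG UMIs of Cd86, 159 and 173 of Icosl and 119 and 82 of Cd80. Cd86 was at 14.3 CPM in the anti-PD1 and 18.8 in the anti-IgG library, Icosl at 6.05 and 8.33 and Cd80 at 4.53 and 3.95, and 0 of the 3 was past 1.5 times in either direction. Among the gates Cd80 was highest in the Foxp3 gate, at 23.2 and 25.2 CPM.

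Other genes of the pathway were read in fixed lists, by how many of their measured members were past 1.5 times, against 5.13% of all genes higher and 9.67% lower. Of 30 genes of proximal CD28 and ICOS signalling, 1 was higher and 0 lower (median ratio 1.02): Rel, an NF-kappaB subunit, at 1.67. Of 14 genes of CTLA4 trafficking and binding, 0 were past it (median 0.987), Lrba, which protects CTLA4 from degradation, being at 0.788. Of 6 measured members of the other CD28 and B7 families, Pdcd1lg2, a PD1 ligand, was at 1.67, while the inhibitory receptor Btla was at 0.589 and its partner Tnfrsf14 at 0.649 (median 1.10). In Cd276, the seventh, 6 and 17 UMIs were counted.

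The list of ICOS mRNA control and ICOS-linked genes had 4 of 7 measured members higher and 0 lower (median 1.65). They were Zc3h12a (regnase 1, which degrades Icos mRNA) at 2.78, Il10 at 2.69, Bcl6, the follicular helper factor, at 2.49 and Cxcr5, the follicle homing receptor, at 1.65. Rc3h1 (roquin 1), which also represses Icos mRNA, was at 1.06, and Maf, also in the list, at 0.695 (0.655 to 0.738). Il21 (7 anti-PD1 and 10 anti-IgG UMIs) and Il4 (44 and 47) were too sparse to count as measured. Within the gates, where only 4 or 5 members were measured, the list medians were 0.996 (Foxp3), 0.938 (Cd4), 1.18 (Cd8b1) and 0.975 (gamma-delta). These medians rest on other members than the pooled one. Il10 and Cxcr5 had under 100 UMIs in every gate, and Bcl6 in the Foxp3 and gamma-delta gates. Zc3h12a stayed higher, at 2.44, 2.74, 2.06 and 3.46 in that order, and Bcl6 was at 2.75 (Cd4) and 3.13 (Cd8b1). Maf was at 0.667, 0.667, 0.773 and 0.633. B cell markers summed to 129.9 CPM in anti-PD1 and 58.1 in anti-IgG T cells, and their part in these ratios was not tested. Of 13 genes raised by costimulation in T cell culture, 4 were higher and 1 lower (median 1.37). Among the higher were Irf4 at 3.27 and Hk2, a glycolytic enzyme, at 2.94. The lower gene was Il2, the T cell growth factor, at 0.464 with 171 anti-PD1 and 291 anti-IgG UMIs. The dissociation and early response list went both ways, with 6 of 14 higher (Nr4a3 at 5.33, Nr4a1 at 4.85) and 4 lower (Hspa1b at 0.593, Jun at 0.593; median 1.11). Its genes also answer to tissue digestion, and the part of digestion in the members' differences was not tested.

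The genes whose pattern over the 4 gates in both libraries was most like that of each member were sought among 7692 genes. For Ctla4 they were Lyn (Pearson r = 0.985), Batf (0.983), Sdhaf1 (0.979), Ldha (0.978) and Baz1a (0.978). For Icos they were Ptdss1 (0.971), Dazap2 (0.968), Samsn1 (0.966), Cog5 (0.963) and Plk3 (0.957). For Cd28 they were Lilr4b (0.978), Fyb (0.978), Dip2b (0.977), Prkca (0.975) and Cd6 (0.974). Each r is over 8 profiles that share 2 libraries and their depth, and with so many genes searched it is a description only. Among the members, r was 0.607 for Ctla4 and Icos, 0.450 for Ctla4 and Cd28 and -0.28 for Icos and Cd28.

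The 2 protein-coding genes before Cd28 were lower in the anti-PD1 library. Raph1, the nearest protein-coding gene before Cd28, had 302 UMIs in anti-PD1 and 300 in anti-IgG T cells, a ratio of 0.795 (0.675 to 0.936), and Abi2, beyond it, 210 and 270 UMIs and a ratio of 0.614 (0.510 to 0.738). Inside Icos lies the unclassified transcript Gm37039 on the same strand, with 130 and 69 UMIs and a ratio of 1.49 (1.10 to 2.02), the same direction as Icos, and inside Ctla4 the pseudogene Rpl18-ps1 with 16 and 14 UMIs. Reads from these could not be told from reads of their host genes with certainty, but they are few beside the 9805 anti-PD1 and 3769 anti-IgG UMIs of Icos.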

How the data were processed

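Each deposited matrix holds whole-number UMI counts, one for every gene in every called cell, with no normalization. Per the file headers, Cell Ranger 7.1.0 wrote these count matrices; version 7.2.0 of it, with Seurat 4.4.0 and mm10, stands in the submitters' processing notes. Per the labels' protocols, hearts were digested, red cells lysed, dead cells removed and a droplet kit for transcript 3′ ends used; the series text calls the T cells sorted, and no sort is described. The counting of multimapping or antisense reads is not stated in these sources. Of 55357 gene IDs, 52081 are in GENCODE M21.

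A cell was kept if it had at least 300 genes, at least 500 UMIs and no more than 10% of its UMIs from mitochondrial genes. A gate needs 1 marker UMI, and a cell with no Cd3 UMI took a class name with 2 markers of it and more than of any other class. Doublets were kept, with cells of more than 1 gate set aside; Scrublet's automatic threshold marked 4 anti-PD1 and 0 anti-IgG cells, so removal of the top-scoring 272 and 149 cells is an alternative only. UMIs were summed per library and gate. Ratios have exact conditional binomial intervals, levels exact Poisson intervals, shares exact Clopper-Pearson intervals, and a count of 0 allows 3 counts. PCR copies are collapsed by UMIs, and all intervals cover counting error only. Likeness used log2(CPM + 10) for genes with at least 500 UMIs. Lists name up to 2 genes with the highest and 2 with the lowest ratios past 1.5 times among those with at least 100 UMIs; Lrba, Rc3h1 and Cd276, and the further genes named in a list, were chosen after their values were seen. The members and lists were chosen with earlier results of these data known. A split of the gates by a further pair of markers, and 1 gene list, are not reported here. The ratio code was tested on simulated counts. Tools were Python 3.11.15, numpy 2.4.6, scipy 1.17.1, pandas 2.3.3, scanpy 1.11.5 and matplotlib 3.10.9.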

Additional observations from a re-analysis of the deposited data

Results flagged for a closer look

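Cells with no Cd3 UMI and too few markers for a class name stand outside the comparisons. In 16 of the 105 such anti-PD1 cells (15.2%) an Icos UMI was found, with 40 UMIs in all, against 0 of 74 anti-IgG cells, which allows a share of up to 4.05%. Their median depths were 2071 and 1628 UMIs. In the same cells Cd28 was in 22 anti-PD1 and 11 anti-IgG cells (21.0% and 14.9%) and Ctla4 in 11 and 4 (10.5% and 5.41%). After thinning to 1000 UMIs, Icos was in 7 of 83 anti-PD1 and 0 of 47 anti-IgG cells. These cells entered no ratio between the libraries.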

How the results depend on the processing

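The Cd28 ratio of the gamma-delta gate, whose interval includes 1, came out above 1 under 4 alternatives (1.02, 1.10, 1.38 and the thinned 6.56); no other library ratio changed side, and no ratio over the Cd4 gate did. The gamma-delta over Foxp3 ratio of Icos, recomputed after seeing the data, was 1.14 thinned in the anti-PD1 library, and in the anti-IgG library it turned to 0.933 with 2 UMIs of the gate marker and 0.938 with each cell weighted alike. Of 165 library ratios recomputed under the alternatives 145 stayed inside the counting interval of the reported value, 20 moved out of it and 0 reversed, and of 80 gate ratios 57 stayed, 23 moved and 0 reversed. A ratio was counted as reversed only where the interval of the reported value excludes 1. The changes of side named above are therefore counted as stayed or moved. Thinning to 1000 UMIs moved all 30 shares, over all T cells to 14.0% and 9.47% for Ctla4, 24.9% and 14.9% for Icos and 19.2% and 17.9% for Cd28 in the anti-PD1 and anti-IgG libraries, and it gave anti-PD1 over anti-IgG ratios for Ctla4 of 1.44 in all T cells, 1.17 (0.998 to 1.37) in the Foxp3 gate and 1.88 in the gamma-delta gate, for Icos of 2.03 in the Cd4 gate and 3.69 in the Cd8b1 gate, and for Cd28 of 1.10 (0.952 to 1.27) in the Cd4 gate, 1.71 in the Cd8b1 gate and 6.56 (1.01 to 276.1) in the gamma-delta gate, where 1 thinned anti-IgG cell had a UMI. Thinned ratios over the Cd4 gate in the anti-IgG library were 9.80 for Ctla4 in the Foxp3 gate, 0.773 for Cd28 in the Foxp3 gate, 0.396 for Cd28 and 0.212 for Icos in the Cd8b1 gate and 0.0129 for Cd28 in the gamma-delta gate, and in the anti-PD1 library 0.561 for Ctla4 and 2.01 for Icos in the gamma-delta gate. With 2 UMIs of the gate marker the library ratios were 1.19 for Ctla4 and 1.38 for Icos in the Foxp3 gate and 2.13 for Ctla4 in the Cd4 gate; ratios over the Cd4 gate in the anti-PD1 library were 5.76 for Ctla4 and 1.56 for Icos in the Foxp3 gate, 0.352 for Ctla4 and 0.369 for Icos in the Cd8b1 gate and 0.568 for Ctla4, 1.63 for Icos and 0.0535 for Cd28 in the gamma-delta gate, and in the anti-IgG library 10.3 for Ctla4 in the Foxp3 gate and 0.281 for Icos in the Cd8b1 gate. With each cell weighted alike, Ctla4 in the Foxp3 gate was at 1.28 between the libraries, and over the Cd4 gate at 10.2 in the anti-IgG library; in the Cd8b1 gate of the anti-PD1 library it was at 0.388, while Icos in its gamma-delta gate was at 1.89 and Cd28 in that of the anti-IgG library at 0.0599. With the median gene set to 1 the ratios over all T cells were 1.68 for Ctla4, 2.23 for Icos and 1.22 for Cd28, and in the Cd4 gate 2.47 for Icos and 1.28 for Cd28. With the same mix of gates in both libraries Ctla4 was at 1.72 and Cd28 at 1.20. Leaving out T cells with markers of other cells, an alternative chosen after seeing the data, put Ctla4 in the Foxp3 gate at 1.28. The causes of these moves were not tested. No paired analysis was possible because each antibody has 1 library and no test was run. Cd28 in gamma-delta cells rests on 62 anti-PD1 and 30 anti-IgG UMIs, and Icos in that gate had a lowest ratio of 1.496 against the 1.5 used for counts.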
